A study of Rattus norvegicus with 8 samples.

Results

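The genes described here encode parts of motile cilia and of the axoneme, the microtubule skeleton inside a cilium or flagellum. They were chosen by gene symbol alone: dynein heavy chains (Dnah), dynein intermediate and light chains (Dnai, Dnal, Dnali), radial spoke heads (Rsph), tektins (Tekt), cilia and flagella associated proteins (Cfap), docking complex genes (Odad), the nexin-dynein regulatory complex (Drc), dynein assembly factors (Dnaaf), and Dynlrb2, Dnajb13, Foxj1, Ccdc39, Ccdc40, Spag6, Spag16 and Spag17. The array carried 70 probes for 66 such genes, out of 30367 probes for 26633 genes or unnamed transcripts, and 49 of the 66 genes passed the filter on dim probes and were tested. Axonemal dynein arms slide neighbouring microtubule doublets to make a cilium beat, radial spokes and the central apparatus time the strokes, and tektins and other inner proteins line the doublet wall. FOXJ1 is the transcription factor that switches on this set of genes in multiciliated cells. Most renal tubule cells instead carry a solitary, non-motile primary cilium.

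The study compared kidneys of male SD rats (Sprague-Dawley) that were 10 weeks old. The control samples came after 4 weeks of 0.5% methylcellulose, a vehicle, and the treated samples after 4 weeks of APL, dosed with 150 mg/kg. The abbreviation is taken to mean allopurinol, a xanthine oxidase inhibitor, because the series title gives that drug as the origin of the fibrosis in these rats. There were 4 samples in each group, each on 1 single-colour array, and the labels do not state that each was a separate animal, so p-values measure the spread between these samples. Tissue is labelled kidney while the series title speaks of renal tubules, and the labels name no genetic change in either group.

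Kidney markers were present on the control arrays: all 10 proximal tubule genes and all 5 podocyte genes listed were measured. With allopurinol 8 of the 10 proximal tubule genes were called lower, against 11.5% of everything tested. The glucose transporter Slc5a2 was the 1 called higher (3.04 ± 0.66, adjusted p = 0.0140, limma), against 11.9% of everything tested. The summed level of the list went from between 9.12 and 9.30 to between 5.32 and 5.58. The 75th percentile of the processed signal lay between 272 and 307 on the control arrays and between 378 and 497 on the allopurinol arrays. All levels given are log2 values of the signal divided by this percentile, so a level of 0 means a signal at the array's 75th percentile, and levels under -7.64 were raised to that floor.

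More motile cilia probes gave a signal with allopurinol than without. On the control arrays 39 to 43 of the 70 probes were well above background, and on the allopurinol arrays 53 to 55 were. That was 55.7% to 61.4% against 75.7% to 78.6%, and the groups did not overlap. Over all probes the shares were 74.0% to 77.3% and 80.0% to 81.9%, so detection as a whole was also higher on the brighter allopurinol arrays, and its part in the difference was not tested.

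**Figure D1:**
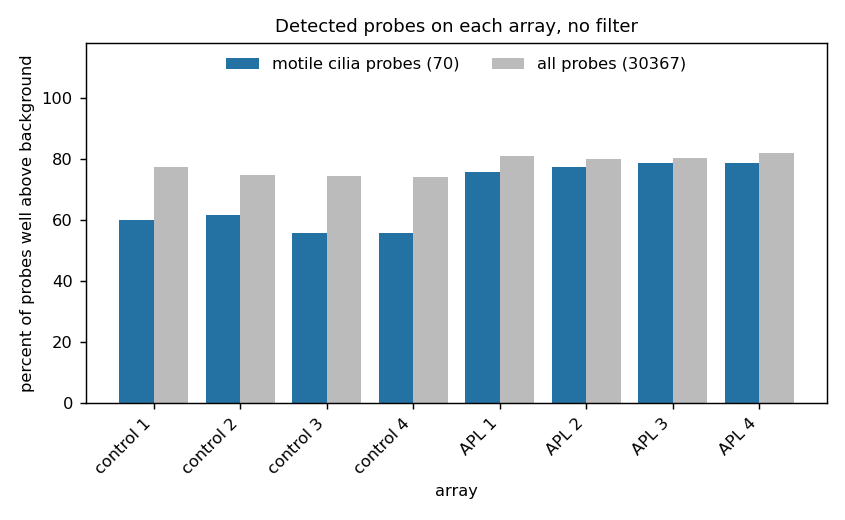
Percent of probes well above background on each of the 8 arrays, for the 70 motile cilia probes (blue) and all 30367 probes (grey), with no filter. The motile cilia bars reach 55.7% to 61.4% on control arrays and 75.7% to 78.6% on allopurinol arrays.

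Motile cilia genes did not move as one group. Of the 49 tested, 7 were called higher and 2 lower with allopurinol at an adjusted p under 0.05 (limma, Benjamini-Hochberg over 21420 genes or unnamed transcripts). That is 18.4% called, against 23.5% of everything tested, and by direction 7 higher against a background of 11.9% and 2 lower against 11.5%. Asking also for a 2-fold difference left 6 higher (background 9.86%) and 1 lower (8.78%). The median log2 fold change of the 49 was 0.37, against -0.029 for all genes tested. Without control replicate 3 these medians were 0.23 and -0.023. They were 0.057 and -0.039 with normexp and quantile normalization. Among genes above background on all 8 arrays they were 0.020 and -0.096. The values of the 2 groups did not overlap for 10 of the 49 (background 29.9%), and 39 overlapped. The called members were Dynlrb2, Dnajb13, Cfap77, Foxj1, Dnah1, Dnaaf10 and Dnal4 upward and Cfap68 and Drc7 downward. Without scaling between arrays 16 members were called higher and 1 lower, while the median of all genes tested rose to 0.61 and the share of higher calls among all calls from 50.8% to 83.7%.

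Within this set, 4 genes were well above background on every allopurinol array and on no control array: Dynlrb2, Dnajb13, Foxj1 and Dnah1. Such a pattern was found for 1.15% of everything tested. These genes passed the filter only through the allopurinol arrays, so they had to differ, and nothing is read from their number. For the main processing only lower bounds of their folds are given. The adjusted p-values printed beside the bounds belong to the fitted difference from control values at or near the floor, not to the bounds. They are not read as evidence, because these genes had to differ. A bound sets the mean of the bright group against a reference on each dim array. The reference was the lowest signal of any probe well above background there, or the probe's own signal where that was higher. Some probes above that lowest signal were still not counted as well above background, so the bounds are approximate. They hold for the main processing only. In bulk kidney RNA, a larger number of cells with these transcripts and more transcript per cell cannot be told apart.

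Dynlrb2 encodes a roadblock-type dynein light chain. Its level was at the floor of -7.64 on all 4 control arrays and -0.55, 0.067, 0.20 and 0.64 on allopurinol arrays 1 to 4. The allopurinol values lay close together, far above the floor. The transcript was at least 66.4-fold higher in the main processing (adjusted p = 8.29e-06 for the fitted difference, limma). With normexp the log2 difference was 2.72 with the 75th percentile and 2.41 with quantile normalization, below the log2 bound of 6.05. A second probe was also at the floor on the 4 control arrays and read -1.95, -1.79, -1.56 and -1.05 with allopurinol, at least 20.8-fold higher.

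Dnajb13 encodes a co-chaperone that is built into the radial spoke. Its levels were -7.00, -7.64, -6.42 and -6.56 on the control arrays and 0.32, -0.14, -0.61 and -0.78 on the allopurinol arrays. All control values were near the floor and the groups were wide apart. The transcript was at least 50.7-fold higher in the main processing (adjusted p = 2.51e-05 for the fitted difference, limma). With normexp the log2 difference was 2.27 with the 75th percentile and 2.02 with quantile normalization, below the log2 bound of 5.66. Cfap77 encodes a protein of the microtubule doublet lumen, and its control levels were -6.39, -5.63, -6.57 and -7.18. With allopurinol they were -1.43, -0.63, -0.90 and -0.71. Only 1 of the 4 control values was well above background, so the size of the difference rests on dim values, and Cfap77 rose by 5.53 ± 0.35 (adjusted p = 4.90e-05, limma). With normexp and quantile normalization the Cfap77 difference was 1.60, still called.

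Foxj1 was at the floor on all 4 control arrays and read -3.34, -4.37, -5.97 and -2.24 with allopurinol. The allopurinol arrays differed from each other more than for the genes above, with replicate 4 highest and replicate 3 lowest. Foxj1 was at least 3.95-fold higher (adjusted p = 0.00836 for the fitted difference, limma). Dnah1, an inner arm dynein heavy chain, had control levels of -7.64, -7.03, -7.00 and -7.24 and allopurinol levels of -4.24, -5.16, -4.91 and -3.88. Each allopurinol value was above each control value, and Dnah1 was at least 2.67-fold higher (adjusted p = 0.000949 for the fitted difference, limma). Both genes were dim, and their calls were lost with normexp, at adjusted p = 0.290 and 0.449 with the 75th percentile and 0.0823 and 0.0878 with quantile normalization. That of Foxj1 was also lost with the floor at 0.02 of the percentile (adjusted p = 0.0898). Over the other settings with all arrays, log2 differences went down to 0.40 for Foxj1 and 0.21 for Dnah1. These lie below their log2 bounds of 1.98 and 1.42.

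The other 2 higher members were measured on all 8 arrays and changed little. Dnaaf10, which acts with the chaperone complex that assembles dyneins, read -0.83, 0.072, -0.33 and 0.30 in control and 0.96, 0.99, 0.70 and 0.93 with allopurinol. It rose by 1.096 ± 0.27 (adjusted p = 0.0241, limma). Dnal4, a dynein light chain, read 0.93, 1.44, 1.25 and 1.51 in control and 2.29, 1.90, 2.35 and 2.03 with allopurinol, a rise of 0.86 ± 0.21 (adjusted p = 0.0242, limma). The gap between the groups was narrow for both. Scaling normexp-corrected signals to the 75th percentile ended both calls (adjusted p = 0.165 and 0.366). Dropping control replicate 3 or any of allopurinol replicates 1, 2 and 4 ended that of Dnaaf10, and dropping replicate 1 or 3 of either group ended that of Dnal4, with adjusted p reaching 0.0620.

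Cfap68, which encodes another protein of the doublet lumen, was the member that fell most. Its levels were 0.51, -0.34, 0.64 and 2.04 in control and -6.34, -5.43, -5.49 and -5.83 with allopurinol. Every array was well above background for this probe and the groups lay far apart. The lowest levels counted as well above background on the allopurinol arrays were -6.76 to -6.23. The allopurinol values were close to these, so the size of the difference rests on dim values. Cfap68 fell by 6.48 ± 0.49 (adjusted p = 9.84e-05, limma), rank 62 from the bottom of everything tested, with differences of -5.97 on slide 1 and -7.00 on slide 2. A second Cfap68 probe, for the same accession, was dim in both groups, with levels of -6.69 to -5.52 in control and -6.61 to -5.62 with allopurinol. The fall was thus carried by 1 of 2 probes. With normexp and the 75th percentile the difference was -2.55 and still called (adjusted p = 0.0384).

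Drc7, a subunit of the link between neighbouring doublets, read -3.79, -4.36, -4.04 and -4.18 in control and -4.64, -4.58, -4.97 and -5.33 with allopurinol. The groups did not overlap but were close, and Drc7 fell by 0.79 ± 0.24 (adjusted p = 0.0490, limma). Leaving out any 1 of the 8 arrays ended that call (adjusted p 0.0599 to 0.110), and with normexp and the 75th percentile the value was 0.31.

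**Figure D2:**
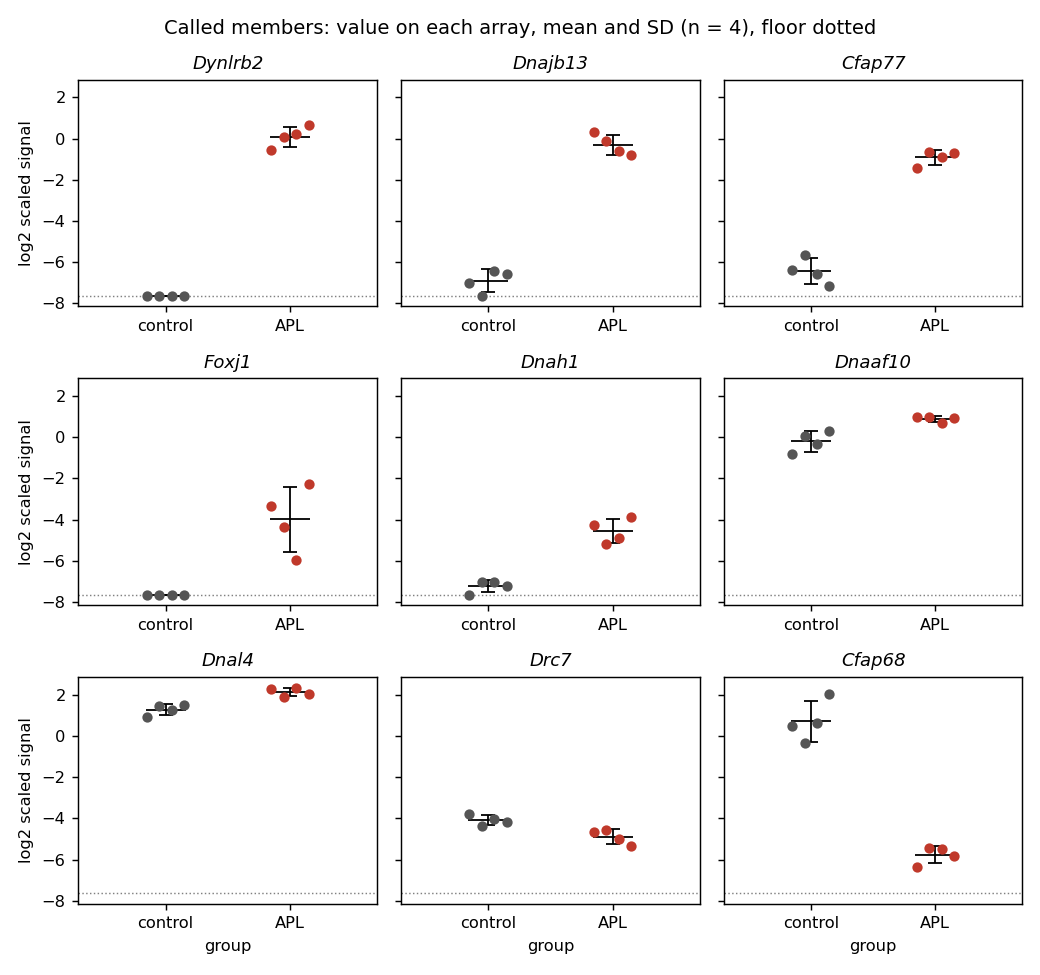
Log2 scaled signal of the 9 called members on each array (points), with the mean and SD of each group (n = 4) and the floor of -7.64 as a dotted line. Dynlrb2 and Foxj1 sit on the floor in control, Cfap68 falls from near 0 to about -5.77, and Dnaaf10, Dnal4 and Drc7 shift by about 1 or less.

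Promoter sequence is shown for the 3 members with the largest rises, for the 2 that fell and, for its motif match, for Dnal4, because RFX factors and FOXJ1, a forkhead factor, act together on many motile cilia genes. Windows run from 250 bases before to 50 bases after the annotated start (RefSeq, rat build GRCr8, which is not the build of the array header). They were searched on both strands for the RFX half-sites GTTGCCA and GTTGCTA and the forkhead cores GTAAACA and ATAAACA. No match of one kind overlapped a match of the other in the windows printed. Matches are in capitals.
Dynlrb2, chr19:61428830-61429129 (+ strand): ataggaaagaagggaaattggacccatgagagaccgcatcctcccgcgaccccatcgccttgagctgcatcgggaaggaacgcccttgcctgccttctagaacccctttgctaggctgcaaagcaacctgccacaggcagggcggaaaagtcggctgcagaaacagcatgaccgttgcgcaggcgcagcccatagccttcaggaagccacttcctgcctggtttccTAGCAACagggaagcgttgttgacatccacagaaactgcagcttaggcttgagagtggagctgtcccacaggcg
Dnajb13, chr1:164275044-164275343 (- strand): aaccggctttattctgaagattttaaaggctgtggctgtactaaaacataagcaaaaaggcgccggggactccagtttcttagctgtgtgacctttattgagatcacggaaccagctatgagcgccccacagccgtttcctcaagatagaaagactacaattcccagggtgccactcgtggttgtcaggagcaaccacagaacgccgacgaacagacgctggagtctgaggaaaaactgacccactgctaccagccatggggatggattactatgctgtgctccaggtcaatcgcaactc
Cfap77, chr3:32779212-32779511 (- strand): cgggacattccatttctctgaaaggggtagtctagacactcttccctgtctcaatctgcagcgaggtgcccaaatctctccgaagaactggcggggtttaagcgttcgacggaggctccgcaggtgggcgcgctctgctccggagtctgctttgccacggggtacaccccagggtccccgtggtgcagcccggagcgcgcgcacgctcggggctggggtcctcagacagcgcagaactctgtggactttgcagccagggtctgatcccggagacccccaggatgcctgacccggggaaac
Dnal4, chr7:113205616-113205915 (- strand): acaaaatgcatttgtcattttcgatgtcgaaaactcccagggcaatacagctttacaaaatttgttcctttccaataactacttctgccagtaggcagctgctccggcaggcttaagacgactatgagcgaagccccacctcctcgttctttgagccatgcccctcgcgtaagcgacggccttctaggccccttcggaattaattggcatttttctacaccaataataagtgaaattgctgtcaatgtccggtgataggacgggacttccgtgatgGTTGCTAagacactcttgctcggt
Cfap68, chr8:60007653-60007952 (- strand): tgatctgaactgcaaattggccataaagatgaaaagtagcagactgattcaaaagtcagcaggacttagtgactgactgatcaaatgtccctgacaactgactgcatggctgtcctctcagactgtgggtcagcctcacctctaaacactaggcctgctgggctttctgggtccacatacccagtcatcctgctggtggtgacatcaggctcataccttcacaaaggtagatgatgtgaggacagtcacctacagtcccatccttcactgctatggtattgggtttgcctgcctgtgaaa
Drc7, chr19:9967143-9967442 (- strand): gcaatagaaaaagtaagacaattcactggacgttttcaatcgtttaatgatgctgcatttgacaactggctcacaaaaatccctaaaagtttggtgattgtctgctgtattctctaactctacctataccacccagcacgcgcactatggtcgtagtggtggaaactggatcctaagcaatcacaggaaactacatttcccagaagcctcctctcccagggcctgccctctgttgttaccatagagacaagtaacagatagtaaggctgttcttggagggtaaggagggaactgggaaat

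Dynlrb2 held 1 RFX half-site, GTTGCTA on the reverse strand, beginning 24 bases before the start. Dnal4 held 1 on the forward strand, at bases 277 to 283 of its window and so past the start. The other windows printed held neither motif. Across the 53 members with a promoter in the table, 19 (35.8%) held an RFX half-site, against 8.42% of all 27457 genes with a promoter, and 6 (11.3%) held a forkhead core, against 8.77%. Of the 8 called members with a promoter, 2 held an RFX half-site and 0 a forkhead core; the 8 are all called members but Foxj1. A match describes letters in this window and does not show binding.

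By role, 3 of 7 tested dynein chains, Dnah1, Dynlrb2 and Dnal4, were called higher and 0 lower (background 11.9% and 11.5%). Dnah1 and Dynlrb2 passed the filter only through the allopurinol arrays and had to differ. Nothing is therefore read from the counts of dynein chains called. The only dynein heavy chain on the array under the rule was Dnah1, called higher. Of 6 tested intermediate and light chains, 2 were called, both higher. All 6 log2 fold changes were above 0, with a median of 0.88. Over everything tested 10474 of 21420 were above 0. Dynlrb2 is among the 6 and had to differ, so nothing is read from this count or median. Dnai4, an intermediate chain of an inner arm dynein, had levels of -2.94 to -0.20 in control and -1.69 to 1.03 with allopurinol (1.56 ± 0.73, adjusted p = 0.161). Dnai1, Dnai2 and Dnai3 did not pass the filter: Dnai1 was well above background on 1 allopurinol array, Dnai3 on 2, and Dnai2 on none. Of 7 tested assembly factors only Dnaaf10 was called (14.3%, background 23.5%). Dnaaf5, another assembly factor, read -2.18, -2.84, -2.85 and -5.39 in control and -0.23, -0.98, -1.80 and -1.37 with allopurinol. Its groups did not overlap, with control replicate 4 far below the rest (2.22 ± 0.70, adjusted p = 0.0533, limma). Dnaaf5 was called under 5 of 13 other settings with all arrays, the slide as a block among them (adjusted p = 0.0327). Over these 13 settings its adjusted p reached 0.0907. Dnaaf4 gave 1.75 ± 0.66 (adjusted p = 0.0949). For the docking complex, Odad4 gave 1.02 ± 0.82 and Odad1 -0.64 ± 0.44, neither called.

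Radial spoke genes other than Dnajb13 were not called (16.7% called with Dnajb13, background 23.5%). Of 6 tested, Dnajb13 included, 5 had log2 fold changes above 0 (10474 of 21420 over everything tested), with a median of 1.14. Dnajb13 had to differ, so nothing is read from this count or median. Rsph1, a spoke head protein, shows how widely control arrays could differ, with levels of -1.91 and 0.56 on the 2 control arrays of slide 1 and -5.85 and -5.68 on those of slide 2. Its allopurinol levels were -1.003 and -0.25 on slide 1 and -2.64 and -0.94 on slide 2, so the difference was 0.047 on slide 1 and 3.97 on slide 2 (2.01 ± 1.42 over both, adjusted p = 0.341). Rsph9, also of the spoke head, gave 1.18 ± 0.42 (adjusted p = 0.0806, limma). It was called under 2 of 13 other settings with all arrays, the slide as a block among them (adjusted p = 0.0312). Over these 13 settings its adjusted p reached 0.243.

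Of the 5 tektins, which form filaments along the doublet wall, 2 were tested and none called (background 23.5%). Tekt1 read -5.65, -5.16, -7.04 and -7.64 in control and -5.29, -3.24, -4.68 and -2.19 with allopurinol. The groups overlapped slightly, and the change was 2.52 ± 0.80 (adjusted p = 0.0556). Tekt4 stayed between -2.10 and -1.29 on all arrays (-0.33 ± 0.21, adjusted p = 0.287). Tekt2 was well above background on 3 allopurinol arrays and no control array, which left it below the filter, and Tekt3 on no array.

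In the central apparatus and the nexin-dynein regulatory complex the values lay between -0.79 and 0.0031. Drc7 was the only call among 5 tested (background 23.5%). Cfap69, of the central apparatus, gave 0.0031 ± 0.86 (adjusted p = 0.998), and Drc12 gave -0.11 ± 0.25 (adjusted p = 0.775). Spag6, another central apparatus gene, was at the floor on all 8 arrays. Ccdc40, a ruler that sets the spacing along the axoneme, was well above background on 1 allopurinol array only.

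Among the remaining 19 tested Cfap genes, 1 was called higher and 1 lower, Cfap77 and Cfap68, and the median was 0.21. Cfap300, needed for dynein assembly, read -4.61, -4.25, -7.64 and -7.64 in control and -1.78, -1.95, -5.63 and -1.61 with allopurinol. Its allopurinol replicate 3 overlapped the control range, and the change was 3.30 ± 1.17 (adjusted p = 0.0781, limma). Cfap300 was called under 3 of 12 other settings with all arrays, the slide as a block among them (adjusted p = 0.0320). Over these 12 settings its adjusted p reached 0.299. Cfap210 and Cfap52, both proteins of the doublet lumen, overlapped between groups as well. Cfap210 was at the floor on control replicates 2 and 3 and near -4.13 and -4.15 on 1 and 4, against -4.56 to -1.76 with allopurinol (2.54 ± 1.02, adjusted p = 0.112). Cfap52 read -3.90, -3.13, -4.18 and -6.16 in control and -3.91, -0.94, -2.10 and -1.90 with allopurinol (2.13 ± 0.79, adjusted p = 0.0893). Cfap97 gave -1.36 ± 0.65 (adjusted p = 0.169). The other 13 lay between -0.56 and 0.97.

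**Figure D3:**
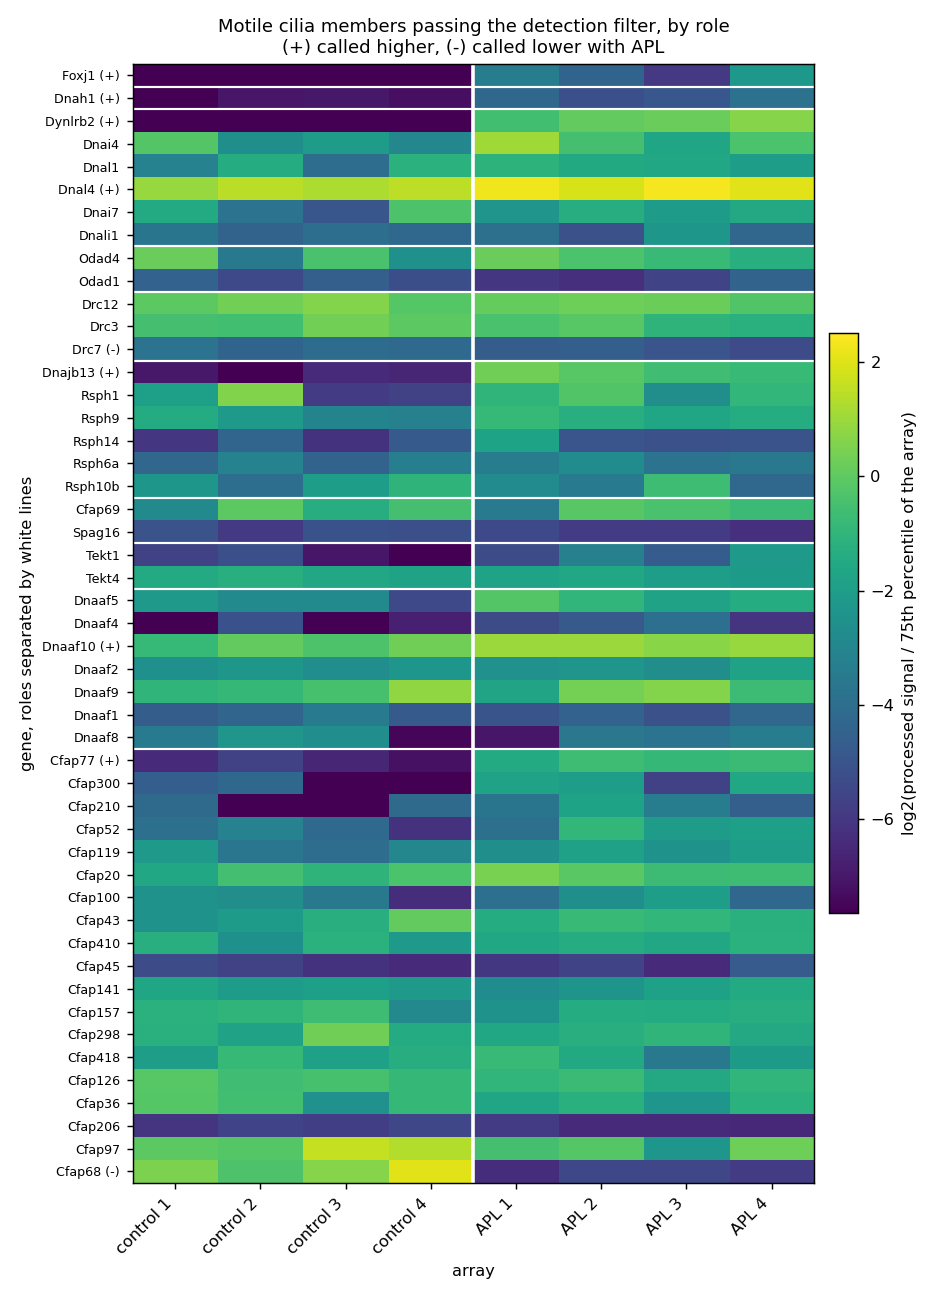
Log2 scaled signal (colour) of the 49 tested members (rows, grouped by role) on the 8 arrays (columns, control left of the vertical white line). Foxj1, Dynlrb2, Dnajb13, Dnah1 and Cfap77 change from dark to light and Cfap68 from light to dark, while most rows keep their colour.

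**Figure D4:**
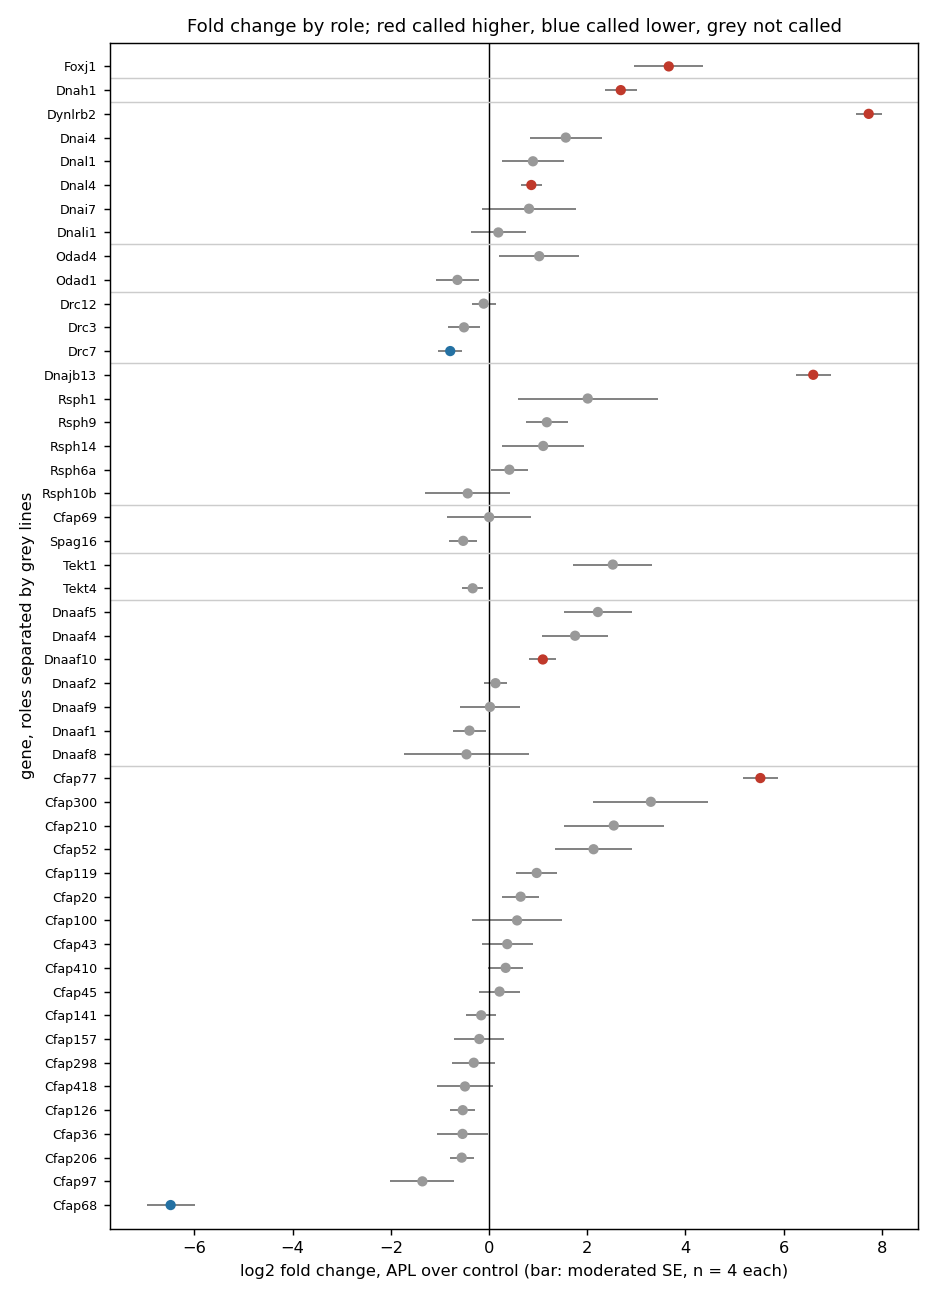
Log2 fold change, allopurinol over control, of the 49 tested members by role, with the moderated SE (n = 4 in each group); red and blue mark called members. Values for Dynlrb2, Dnajb13, Foxj1 and Dnah1 are fitted against control arrays below background. All members but the called ones lie between -1.36 and 3.30.

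Members that stayed undetected belong to the same structures. Of the 66 genes, 17 did not pass the filter, and 5 of these had no probe well above background on any array: Cfap95, Cfap97d1, Dnai2, Spag6 and Tekt3. The other 12 were well above background on 1 to 3 arrays. A probe not well above background has no measured level here.

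Other genes of the multiciliated cell programme, from a list of 66 outside the rule of which 37 were on the array, were described in the same way. Of 28 tested, 3 were called higher and 0 lower (10.7%, background 23.5%), with a median of 0.43. Enkur, which encodes a protein of the doublet lumen, was at the floor on all 4 control arrays and read -3.20, -2.55, -4.81 and -2.79 with allopurinol, at least 6.18-fold higher (adjusted p = 0.000552, limma). Enkur and Tppp3 were well above background on no control array and passed the filter only through the allopurinol arrays. Both had to differ, so their calls and adjusted p-values are not read as evidence. The p-values belong to the fitted differences, not to the bounds. Tppp3, a tubulin-binding protein, was at the floor in control and read -3.20, -5.12 and -6.38 on allopurinol replicates 1, 3 and 4; replicate 2 was dropped from its fit because the spot was marked non-uniform. It was at least 2.09-fold higher (adjusted p = 0.0282), with the call lost under 6 of 12 other settings and when any 1 of 5 arrays was left out. Enkur was not called after normexp correction scaled to the 75th percentile (adjusted p = 0.332). Over the other settings with all arrays, log2 differences went down to 0.47 for Enkur and 0.19 for Tppp3. These lie below their log2 bounds of 2.63 and 1.07. Deup1 and Sntn, also of multiciliated cells, were well above background on no array, and Rfx2 gave 0.68 ± 0.46 (adjusted p = 0.321).

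Calls among intraflagellar transport genes and primary cilium genes were no more frequent than the 23.5% over everything tested. All 25 intraflagellar transport genes on the array were tested, and 3 were called higher and 1 lower (16%, median 0.46). Ift27 gave 1.96 ± 0.58 (adjusted p = 0.0452) and Ttc21b, a retrograde transport subunit, fell by 1.73 ± 0.26 (adjusted p = 0.00271). Of 29 primary cilium membrane and transition zone genes, 4 were called higher and 1 lower (17.2%, median 0.49). Nphp4, a transition zone protein, rose by 3.72 ± 1.02 (adjusted p = 0.0338) and Tmem107 by 2.20 ± 0.61 (adjusted p = 0.0357). Bbs2 and Bbs4, both of the membrane coat that sorts cilium cargo, went opposite ways. Bbs2 fell by 1.86 ± 0.36 (adjusted p = 0.00889, limma) and Bbs4 rose by 1.63 ± 0.31 (adjusted p = 0.00768, limma). The calls of Ift27, Nphp4 and Tmem107 were each lost when some single arrays were left out (adjusted p up to 0.106).

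Markers of other cell types that hold axonemal transcripts were also measured. Of 21 sperm and germ cell genes on the array 11 were tested, 0 were called higher and 3 lower (background 11.5%). Sycp3, of the meiotic chromosome axis, was at -2.95 ± 0.50 (adjusted p = 0.00480), the sperm glycolytic enzyme Gapdhs at -0.85 and Akap3, of the sperm tail sheath, at -0.83. The call of Gapdhs was lost in 7 of 8 and that of Akap3 in 6 of 8 fits without 1 array (adjusted p up to 0.0866). Tnp2, Odf1, Akap4, Pgk2 and Izumo1 were well above background on no array. The summed level of all 21 sperm and germ cell genes on the array was 2.52 to 2.67 in control and 1.88 to 2.36 with allopurinol. For airway and other secretory epithelium, 7 of 9 genes on the array were tested. Foxj1, which had to differ, was the only call (14.3%, background 23.5%). The summed level was -0.0032 to 0.40 in control and -0.23 to 0.10 with allopurinol. No urothelial gene of 4 tested was called (summed level -1.77 to -1.40 and -1.997 to -1.60). Of 7 proliferation genes 3 were called higher (background 11.9%), with summed levels of 0.51 to 2.05 in control and 1.99 to 3.15 with allopurinol. Of 9 injured tubule genes 6 were called higher (background 11.9%), with summed levels of 4.84 to 5.58 and 7.93 to 8.60. Macrophage genes were called higher in 3 of 6 cases (background 11.9%), among them Trem2 at 3.66 and Cd68 at 2.62. Their summed levels were 4.03 to 4.41 and 4.17 to 4.86. The other 3 macrophage genes lay below 0 and were not called: Csf1r at -0.24, Adgre1 at -0.34 and Cd74 at -0.25. Endothelial genes were called lower in 4 of 6 cases (background 11.5%), with a median of -3.26. Their summed levels were 1.91 to 2.82 in control and -1.21 to 0.15 with allopurinol. The part of these lists in the motile cilia results was not tested.

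**Figure D5:**
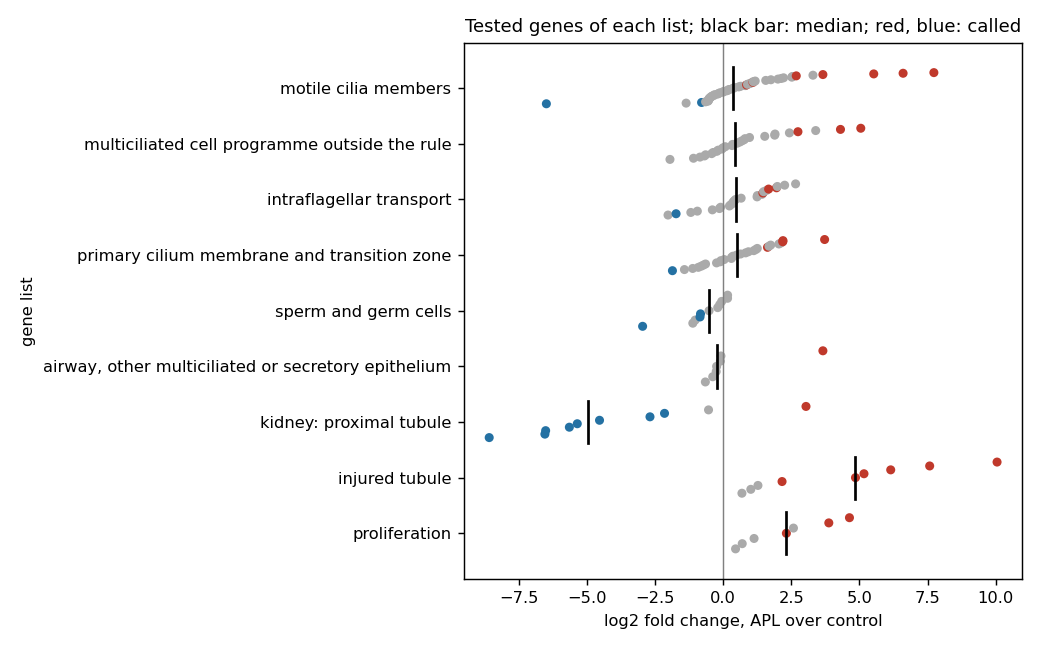
Log2 fold change, allopurinol over control, of each tested gene (points) in the motile cilia set and 8 other lists; the black bar is the list's median, red and blue points were called. Medians of the motile cilia and multiciliated lists are 0.37 and 0.43, against -4.94 for proximal tubule and 4.86 for injured tubule.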

How the data were processed

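Total RNA from 8 kidney samples was labelled with Cy3 and run on 1 Agilent array each (design 028282, build rn4, read with Feature Extraction 10.5.1.1, per the file headers). The authors deposited linear intensity values per spot; the processed intensity is background-subtracted and detrended by that software, per the file headers. The series table holds the authors' log2 values; set against the scanner values it follows the processed signal over the 75th percentile in log2, centred on each probe's median over the 8 arrays (correlations 0.9992 to 0.9997, column medians -0.135 to 0.0759, the source of the remaining differences unknown), and served as an alternative.

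Spots marked non-uniform (2 to 64 per array of 42877) were left out and spots of a probe averaged. Signals were divided by the array's 75th percentile, raised to at least 0.005 of it and taken to log2. Probes well above background on at least 4 of 8 arrays were kept (24343 of 30367), no spot was saturated, and the probe with the highest mean stood for its gene. Symbols came from RefSeq's GRCr8 table by unversioned accession (18643 probes named, 11724 not). The 2 groups were fitted gene by gene in limma 3.58.1 (R 4.3.3, lmFit and eBayes), and the fit was tested on simulated data; errors after ± are moderated standard errors with n = 4 in each group. Each slide held 2 arrays of each group. Array number limits the precision. The members and lists were chosen with earlier results of these data known. By the naming rule, values are given for up to 4 called members of each role, the brightest member of each role and Foxj1, and for the 2 largest calls of the related lists, of which 1 is not reported here. Uncalled members at least 2-fold apart, Odad1, Tppp3, Rfx2, Bbs2, Bbs4, Akap3 and members below the filter were named after their values were seen. So were the cell type marker genes other than Sycp3 and Gapdhs. The Dnal4 promoter was added for its motif match. The alternatives changed background correction, scaling, floor, filter, probe rule, blocks, variance model, source of values and the arrays included.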

Additional observations from a re-analysis of the deposited data

Results flagged for a closer look

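In 3 of 73 groups of 4 arrays, over 39 genes, 1 array stood far from the other 3; chance alone flags about 1 in 20. Cfap300 read -5.63 on allopurinol replicate 3, against -1.95 to -1.61 on the other allopurinol arrays. Rsph14, a radial spoke gene, read -1.75 on allopurinol replicate 1, against -5.15 to -4.95 on the others. Arl13b, a small GTPase of the primary cilium membrane that was called higher, read -2.06 on allopurinol replicate 3, against -0.85 to -0.82 on the others.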

How the results depend on the processing

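Low signal limits what can be said of dim genes: 4 called members had no control array above background. Of 9 called members 4 (Dynlrb2, Dnajb13, Cfap77 and Cfap68) kept their call under every alternative that gave a value, 13 settings with all arrays and 8 without 1 array. Dynlrb2 and Dnajb13 had to differ, so their kept calls are not read as evidence. The setting above background on all 8 arrays gave no value for Dynlrb2, Dnajb13 and Cfap77. The cause of the losses was not tested unless named. Over the whole table, 1051 genes were called higher and 974 lower with normexp and the 75th percentile, 5890 and 1143 without scaling, and 1644 and 1616 with the replicate block. Members called were 3 higher and 1 lower with normexp and the 75th percentile, 16 and 1 without scaling, and 3 higher among those above background on all 8 arrays, a setting that drops the genes at the floor; 1 was lower with normexp and quantile normalization, with the percentile over probes above background on all arrays, with the slide as a block, with the replicate block and with trend and robust eBayes. The member median was 0.057 with normexp and quantile normalization, 1.01 without scaling and 0.020 above background on all 8 arrays; the median of all genes moved from -0.029 to 0.36 with normexp and the 75th percentile and to 0.61 without scaling. Without 1 array, 1609 to 2205 genes were higher and 1777 to 2019 lower, the lowest counts of higher genes without allopurinol replicate 4 (1609) and 2 (1625); 5 to 9 members were higher, 1 lower and the median 0.23 to 0.41. Signs turned for Cfap69 (-0.55 to 0.75 without 1 array) and Drc12 (-0.23 to 0.037 without 1 array, 0.53 without scaling), for Tekt4 with normexp and the 75th percentile (0.21) and without scaling (0.31), and with normexp and the 75th percentile for Drc7 (0.31) and the sperm genes Akap3 (0.41) and Gapdhs (0.052). Same-numbered samples did not deviate together (correlations -0.016 to 0.048), so the numbers were not taken as pairs; with the replicate block 6 members were called higher. Leaving out spots marked as population outliers, chosen after seeing the data, changed no member count.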
